A study of Mus musculus with 10 samples.

Results

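Transcripts of the proteasome, the protease that degrades ubiquitin-tagged proteins, were followed in RENCA tumours injected with a RIG-I agonist. The members were all genes of the deposited count table whose symbol is Psma, Psmb, Psmc, Psmd, Psme, Psmf or Psmg followed by a number, together with Pomp. This gave 48 of 18603 genes. Of these, 5 encode subunits that interferon is known to induce (Psmb8, Psmb9, Psmb10, Psme1 and Psme2). Psma8, a testis subunit, was set aside, and the other 42 are called constitutive here. All 48 passed the filter on low counts.

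The core particle (20S) is a barrel of alpha and beta rings in which only 3 kinds of beta subunit, Psmb5, Psmb6 and Psmb7, cut peptide bonds. In cells exposed to interferon, and in leukocytes at rest, newly built cores take up Psmb8 in place of Psmb5, Psmb9 in place of Psmb6 and Psmb10 in place of Psmb7. The resulting immunoproteasome favours peptides that fit MHC class I molecules. The core is capped by the regulatory particle (19S), which binds and unfolds ubiquitinated proteins, or by the Psme1 and Psme2 ring (PA28), which opens the core without ubiquitin.

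RENCA is a mouse kidney cancer cell line, grown here under the skin of female Balb/c mice. In 5 mice the tumour was injected with lipid nanoparticles loaded with SLR14, a short RNA hairpin whose 5′ triphosphate is sensed by RIG-I, the cytosolic receptor for viral RNA. In the other 5 mice it was injected with PBS, for which no nanoparticles are named, so effects of the RNA and of its carrier cannot be told apart. Treatment was randomized at a tumour volume of 100 to 150 mm3, was given 3 times at intervals of 48 h, and tumours were taken 24 h after the last injection. The RNA came from whole tumours, so a change in the cells present and a change in RNA per cell cannot be told apart.

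Total counts ranged from 24161644 to 34024137 in PBS and from 17931895 to 39842608 in SLR14 tumours. The epithelial keratin Krt8 had 1180 to 1759 CPM (counts scaled to library size with TMM factors) and the renal transcription factor Pax8 64.2 to 113 CPM over the 10 tumours, while Epcam did not pass 6.11 CPM. A pair of libraries stood apart. PBS 5 had a summed level of 5 red cell genes of 160 CPM against 40.2 to 56.0 CPM in the other PBS tumours, and SLR14 2 had 1.07 CPM over 6 skeletal muscle genes against 79.6 to 180.2 CPM in the other SLR14 tumours. The proteasome members took 0.909% of all counts in PBS 5 and 0.589% to 0.675% in each of the other 9 tumours. Values without PBS 5 are therefore given beside the main results.

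After SLR14 the 3 inducible catalytic subunits were at higher mean levels, but no single member passed the test. Of the 42 constitutive members 10 had a positive and 32 a negative log2 fold change, and without PBS 5 31 were positive and 11 negative. In edgeR's quasi-likelihood test with Benjamini-Hochberg adjustment over 15883 genes, 0 of 48 members passed an adjusted p of 0.05, against 0.963% of all genes (0.674% higher and 0.29% lower). Limma voom also called 0 members (0.913% of all genes), and DESeq2 called 1, Psmb8, against 2.19% of the genes it tested (1.35% higher). At an unadjusted p under 0.05 there were 3 members, 6.25% of them, against 10.8% of all genes. The groups did not overlap in 0 of 48 members, against 3.24% of all genes. The median log2 fold change was 0.35 over the 5 inducible members, -0.09 over the 42 constitutive ones and -0.01 over all genes. Without PBS 5 these medians were 0.48, 0.02 and -0.0031, and 1 member passed, Psmb8, against 1.2% of all genes (0.761% higher). The plot of fold changes shows the 3 inducible catalytic genes standing to the right of the others.

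**Figure D1:**
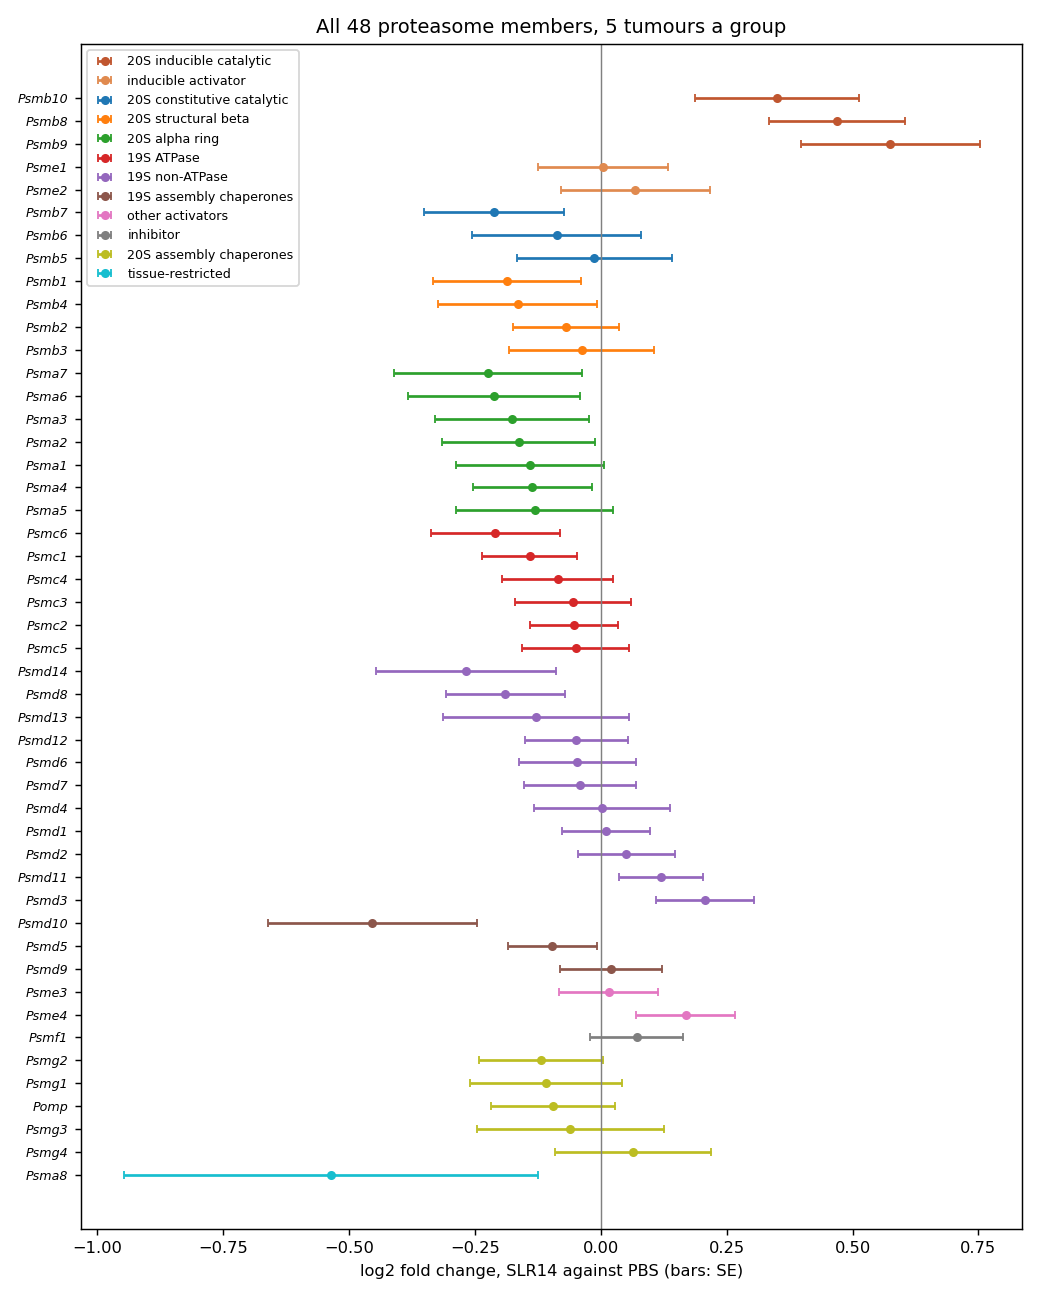
Log2 fold change of SLR14 against PBS (horizontal axis, edgeR, bars SE) for each of the 48 members (vertical axis), coloured by role, with 5 tumours a group. Psmb9, Psmb8 and Psmb10 lie at 0.57, 0.47 and 0.35, and the constitutive members between -0.45 and 0.21.

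Psmb8 (ENSMUSG00000024338), the inducible form of the chymotrypsin-like subunit, had 154, 177, 151, 208 and 234 CPM in PBS tumours 1 to 5. In SLR14 tumours 1 to 5 it had 296, 232, 280, 226 and 245 CPM. The groups overlapped through PBS 5 alone, which exceeded SLR14 2 and SLR14 4. The means were 185 ± 35.9 and 256 ± 30.7 CPM (SD, n = 5), and the log2 fold change was 0.47 (SE 0.14, edgeR adjusted p = 0.165). Without PBS 5 it was 0.56 (SE 0.11, edgeR adjusted p = 0.0306) and the groups no longer overlapped, as for 2.47% of all genes in the higher direction. DESeq2 called it over all 10 tumours (adjusted p = 0.0366).

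Psmb9 (ENSMUSG00000096727), the inducible partner of Psmb6, had 51.8, 75.2, 59.9, 91.5 and 88.1 CPM in PBS and 133, 86.8, 115, 82.8 and 128 CPM in SLR14 tumours. SLR14 2 and SLR14 4 lay within the PBS range and the other 3 SLR14 tumours above it. The means were 73.3 ± 17.3 and 109 ± 23.2 CPM (SD, n = 5), with a log2 fold change of 0.57 (SE 0.18, edgeR adjusted p = 0.212). It did not pass without PBS 5 either (0.65, edgeR adjusted p = 0.119).

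Psmb10 (ENSMUSG00000031897), the inducible partner of Psmb7, had 29.1, 32.6, 42.9, 32.8 and 50.5 CPM in PBS and 53.7, 36.1, 50.4, 41.9 and 57.0 CPM in SLR14 tumours. PBS 3 and PBS 5 reached into the SLR14 range. The means were 37.6 ± 8.85 and 47.8 ± 8.62 CPM (SD, n = 5), and the log2 fold change was 0.35 (SE 0.16, edgeR adjusted p = 0.462). Without PBS 5 it was 0.48 (edgeR adjusted p = 0.153). A fit without both PBS 5 and SLR14 2 was chosen after seeing the data. For these genes PBS 5 was among the higher PBS tumours and SLR14 2 among the lower SLR14 tumours, so leaving both out raises the differences. In that fit the log2 fold changes were 0.60, 0.72 and 0.56 for Psmb8, Psmb9 and Psmb10 (edgeR adjusted p = 0.0236, 0.0749 and 0.0514). Psmb8 was then the 1 member that passed, against 1.33% of all genes (0.873% higher).

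**Figure D2:**
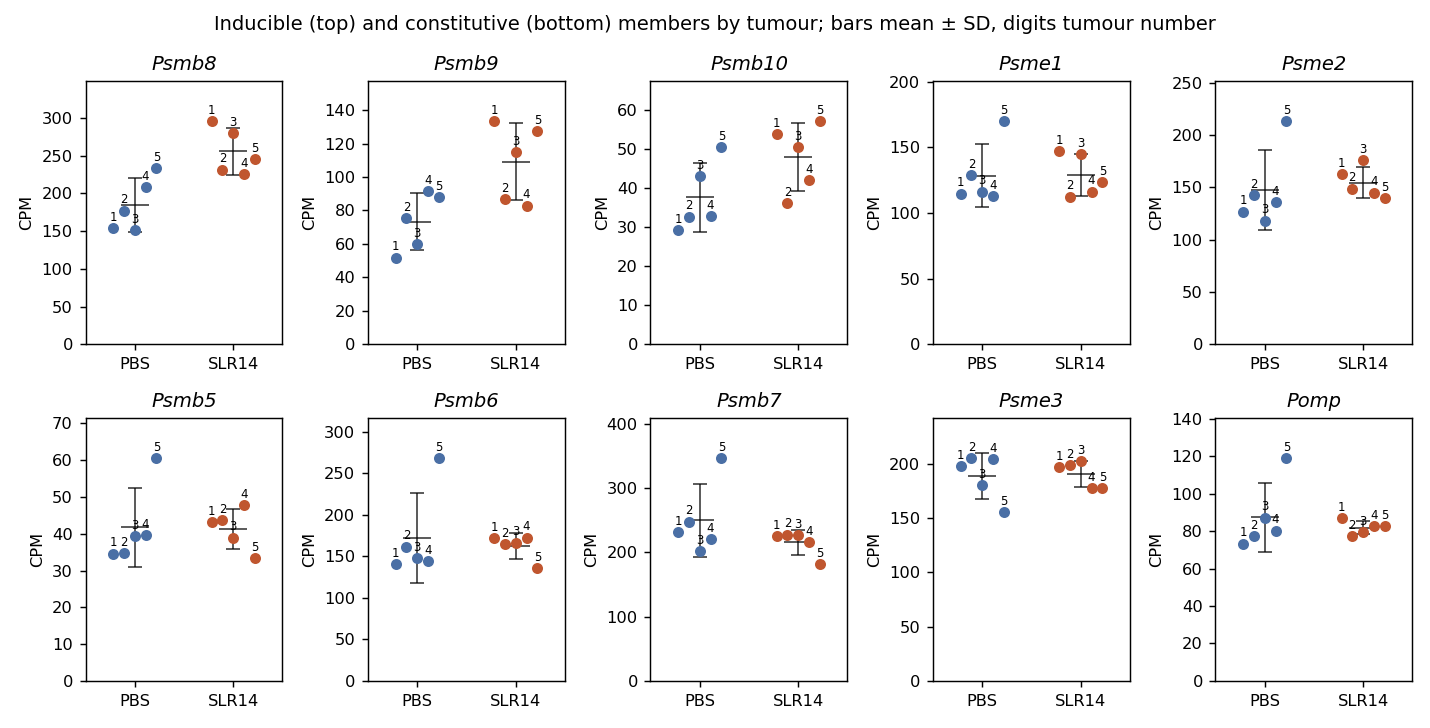
Level in CPM (vertical axis, from 0) of the 5 inducible members (top) and of Psmb5, Psmb6, Psmb7, Psme3 and Pomp (bottom) in each PBS and SLR14 tumour. Points carry the tumour number and bars are mean ± SD of 5; PBS 5 is the highest PBS tumour in all panels but those of Psmb9 and Psme3.

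Within the SLR14 group the same tumours were low for all 3 inducible catalytic genes. SLR14 2 and SLR14 4 had the lowest levels of Psmb8, Psmb9 and Psmb10. These tumours were also the lowest of the SLR14 group for Nlrc5, the class I transactivator (55.0 and 68.9 CPM, others 79.7 to 105). This order was noticed in the values and was not tested.

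Psmb8 and Psmb9 sit beside other antigen presentation genes. In RefSeq's gene order (GRCm38.p6) Psmb9, Tap1, Psmb8 and Tap2 follow one another on chromosome 17, in the MHC region, while Psmb10 lies on chromosome 8, between Ctrl and Lcat. Psme1 and Psme2 lie on chromosome 14 with only Emc9 between them, and Rnf31 and Irf9 come after Psme2. Psmb9 and Tap1 start 226 bases apart on opposite strands, so their promoter windows share 275 of 300 bases.

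The promoter windows of 4 members are printed because they carry, or lack, matches to motifs of interferon-driven or stress-driven transcription. Each runs 5′ to 3′ on the gene's strand from 250 bases before to 50 bases after the RefSeq start (GRCm38.p6), with motif matches in capitals. Psmb8 is at chr17:34197945-34198244 (plus strand), Psmb9 at chr17:34187281-34187580 (minus), Psme1 at chr14:55578244-55578543 (plus) and Psmb5 at chr14:54617946-54618245 (minus).
Psmb8: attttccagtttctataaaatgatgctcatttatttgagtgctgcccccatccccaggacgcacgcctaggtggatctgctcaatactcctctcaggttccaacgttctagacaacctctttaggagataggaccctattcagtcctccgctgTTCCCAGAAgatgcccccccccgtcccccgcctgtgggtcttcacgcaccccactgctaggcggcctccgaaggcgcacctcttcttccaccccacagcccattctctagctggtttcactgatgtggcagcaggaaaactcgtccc
Psmb9: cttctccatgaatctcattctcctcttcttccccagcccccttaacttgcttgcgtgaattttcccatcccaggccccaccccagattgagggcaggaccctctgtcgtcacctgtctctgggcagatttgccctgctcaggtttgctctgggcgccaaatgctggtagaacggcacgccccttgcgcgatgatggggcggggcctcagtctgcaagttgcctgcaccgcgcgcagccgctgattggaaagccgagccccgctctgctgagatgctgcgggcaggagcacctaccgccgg
Psme1: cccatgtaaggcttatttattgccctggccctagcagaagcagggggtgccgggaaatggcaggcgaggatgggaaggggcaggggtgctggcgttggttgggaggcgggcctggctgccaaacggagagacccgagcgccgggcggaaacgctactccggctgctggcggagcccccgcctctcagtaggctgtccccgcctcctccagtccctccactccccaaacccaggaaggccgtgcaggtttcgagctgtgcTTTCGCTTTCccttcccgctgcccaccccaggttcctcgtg
Psmb5: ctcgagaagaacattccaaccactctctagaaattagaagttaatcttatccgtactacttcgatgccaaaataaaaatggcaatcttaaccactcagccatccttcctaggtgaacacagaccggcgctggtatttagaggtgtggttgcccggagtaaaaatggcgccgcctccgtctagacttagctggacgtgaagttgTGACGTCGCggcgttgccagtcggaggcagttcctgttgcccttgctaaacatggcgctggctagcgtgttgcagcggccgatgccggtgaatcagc

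The motifs searched on both strands were the core of the interferon-stimulated response element (GAAA, any 2 bases, GAAA), TTCNNNGAA, the gamma-activated site, and TGACNNNGC, the core of the antioxidant response element used by Nfe2l1 and Nfe2l2. Psmb8 held a TTCNNNGAA match at position -97, Psme1 a response element core on the minus strand at position 10, and Psmb5 a TGACNNNGC match at position -47, counted from 1 at the start site. Psmb9, Psmb10 and Psme2 held none of the 3 in their windows. Windows were found for 40 of 48 members. The response element core was in 1 of 5 inducible and 4 of 35 constitutive genes (3.44% of all 32851 windows), the gamma-activated site in 1 of 5 and 2 of 35 (8.3%), and the antioxidant core in 0 of 5 and 6 of 35 (12.4%). Members were counted as genes with a match in any of their windows, while the percentages are shares of single windows. A match is a description of the letters and not a binding site. A window without a match may still hold an element that departs from these patterns, and sequence outside the windows was not searched.

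Ratios within a tumour do not depend on library scaling, and set each inducible subunit against the one it replaces. The count ratio Psmb8/Psmb5 was 4.44, 5.10, 3.84, 5.26 and 3.86 in PBS tumours 1 to 5 and 6.86, 5.29, 7.20, 4.72 and 7.33 in SLR14 tumours 1 to 5. All SLR14 tumours but SLR14 4 exceeded each PBS tumour. The mean log2 ratio was higher by 0.47 (2.16 ± 0.22 and 2.63 ± 0.29, SD, n = 5; two-sided exact permutation p = 0.0317, adjusted over 5 ratios 0.0661).

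Psmb9/Psmb6 was 0.369, 0.466, 0.406, 0.633 and 0.328 in PBS and 0.776, 0.526, 0.692, 0.480 and 0.940 in SLR14 tumours. PBS 4 exceeded SLR14 2 and SLR14 4, and the other 3 SLR14 tumours exceeded all PBS tumours. The log2 ratio was higher by 0.63 (two-sided exact permutation p = 0.0397, adjusted 0.0661). Psmb10/Psmb7 was 0.126, 0.132, 0.213, 0.149 and 0.145 in PBS and 0.238, 0.159, 0.222, 0.194 and 0.313 in SLR14 tumours, with PBS 3 above SLR14 2 and SLR14 4. The log2 ratio was higher by 0.55 (two-sided exact permutation p = 0.0397, adjusted 0.0661). As folds the 3 differences were 1.39, 1.54 and 1.46, and none passed after adjustment. Without SLR14 4 the Psmb8/Psmb5 difference was 0.57 and passed (two-sided exact permutation p = 0.00794, adjusted 0.0397). SLR14 4 was the only SLR14 tumour not above every PBS tumour for this ratio. Leaving it out therefore fixed p at the lowest value that 126 assignments allow. When any other single tumour was left out, the Psmb8/Psmb5 difference did not pass (two-sided exact permutation, adjusted p = 0.0661 to 0.132). Without PBS 5 the 3 differences were 0.42, 0.53 and 0.54 (two-sided exact permutation, adjusted p = 0.0992 for each).

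**Figure D3:**
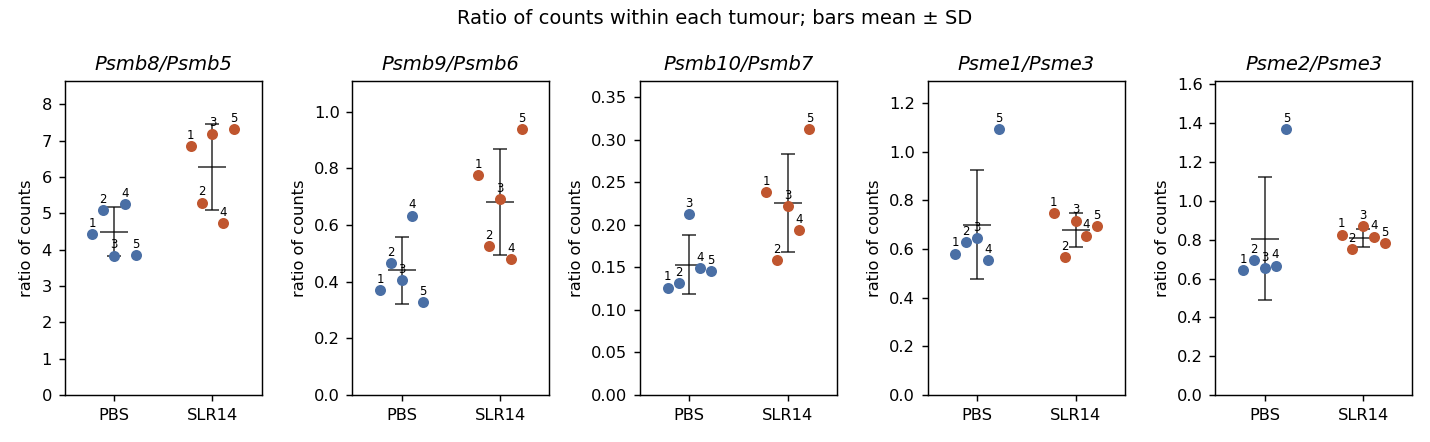
Ratio of counts (vertical axis, from 0) of an inducible member to its constitutive counterpart in each PBS and SLR14 tumour, with tumour numbers and mean ± SD of 5. The 3 catalytic ratios are higher in SLR14 1, 3 and 5 than in any PBS tumour, and PBS 5 is the highest tumour for both Psme ratios.

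Per kilobase of exon, the inducible form made up 54.2 ± 3.69% of the summed Psmb8 and Psmb5 level in PBS tumours, and 62.1 ± 4.72% after SLR14 (SD, n = 5). For Psmb9 with Psmb6 the share was 18.2 ± 3.92% and 25.6 ± 5.23%, and for Psmb10 with Psmb7 23.3 ± 3.86% and 30.8 ± 5.35%. The Psmb8 share was 50.5% to 58.3% in PBS tumours, while the shares of Psmb9 and Psmb10 did not exceed 32.5% and 38.6% in any of the 10 tumours. These shares restate the ratios above and were not tested again. They depend on exon lengths summed over all annotated isoforms, such as 3381 bases for Psmb8 against 899 for Psmb5, and 3660 for Psmb9 against 1872 for Psmb6. The percentages are therefore not exact proportions of transcripts.

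Psme1 and Psme2, the interferon-inducible cap, did not follow the inducible catalytic subunits in the mean. Psme1 had 115, 129, 116, 113 and 170 CPM in PBS and 147, 112, 145, 116 and 124 CPM in SLR14 tumours (log2 fold change 0.0040, SE 0.13, edgeR adjusted p = 0.991). Psme2 had 127, 143, 118, 136 and 213 CPM in PBS and 163, 149, 176, 145 and 139 CPM in SLR14 tumours (0.07, SE 0.15, edgeR adjusted p = 0.87). For both genes PBS 5 was the highest of all 10 tumours. Without PBS 5 the log2 fold changes were 0.12 for Psme1 and 0.23 for Psme2 (edgeR adjusted p = 0.684 and 0.266).

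Psme3, the related nuclear cap that interferon is not known to induce, had 197, 205, 180, 204 and 155 CPM in PBS and 197, 198, 202, 177 and 178 CPM in SLR14 tumours, with PBS 5 the lowest of the 10 (log2 fold change 0.02, and -0.05 without PBS 5). The mean log2 ratio differed by -0.0084 for Psme1/Psme3 and by 0.07 for Psme2/Psme3 (two-sided exact permutation p = 0.976 and 0.849, adjusted 0.976 for both). In PBS 5 these ratios were 1.09 and 1.37, against 0.553 to 0.644 and 0.642 to 0.695 in the other PBS tumours. Without PBS 5 the differences were 0.16 and 0.28, and the second passed (two-sided exact permutation p = 0.119 and 0.00794, the latter being the lowest attainable, adjusted 0.119 and 0.0397). Psme2b, a copy of Psme2, had 12.0 to 19.7 CPM over the 10 tumours, and reads shared between the copies make both values uncertain.

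Each constitutive catalytic subunit was highest in PBS 5 of the 10 tumours. Psmb5 had 34.6, 34.8, 39.3, 39.6 and 60.6 CPM in PBS and 43.1, 43.8, 38.9, 47.8 and 33.5 CPM in SLR14 tumours (log2 fold change -0.01, SE 0.15). Psmb6 had 140.3, 162, 148, 144 and 269 CPM in PBS and 172, 165, 166, 173 and 136 CPM in SLR14 tumours (-0.09, SE 0.17). Psmb7 had 231, 248, 202, 220.3 and 347 CPM in PBS and 225, 228, 227, 216 and 182 CPM in SLR14 tumours (-0.21, SE 0.14). The edgeR adjusted p was 0.979, 0.849 and 0.6 for Psmb5, Psmb6 and Psmb7. SLR14 5 had the lowest level of each of the 3 genes in its group and the highest of all 3 catalytic ratios. Without PBS 5 the log2 fold changes of Psmb5 and Psmb6 were positive (0.15 and 0.12), and that of Psmb7 was -0.07.

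In the rest of the core, all 7 alpha ring genes had negative log2 fold changes (-0.22 to -0.13), as had the 4 structural beta genes (-0.19 to -0.04), and 0 of these 11 had an unadjusted p under 0.05. Without PBS 5 the 42 constitutive members ranged from -0.16 to 0.23. Pomp, the chaperone that assembles the new core and favours the inducible form, had 73.3, 77.5, 87.2, 80.2 and 119 CPM in PBS and 86.8, 77.3, 79.7, 82.8 and 82.8 CPM in SLR14 tumours (log2 fold change -0.10, SE 0.12, edgeR adjusted p = 0.778; 0.04 without PBS 5). The 5 core assembly chaperones Psmg1 to Psmg4 and Pomp ranged from -0.12 to 0.06.

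In the regulatory particle, the 6 ATPases that unfold substrates (Psmc1 to Psmc6) ranged from -0.21 to -0.05 on the log2 scale and the 11 other subunits from -0.27 to 0.21. The largest positive value among constitutive members was that of Psmd3, a lid subunit, with 130.3, 152, 167, 151 and 121 CPM in PBS and 167, 165, 169, 168 and 163 CPM in SLR14 tumours (0.21, SE 0.10, edgeR adjusted p = 0.469). The SLR14 tumours were tightly grouped and lay at the top of the PBS range. The next was Psme4, the PA200 cap, at 94.1 ± 12.8 CPM in PBS and 106 ± 2.69 CPM after SLR14 (SD, n = 5; 0.17, SE 0.10, edgeR adjusted p = 0.565). Leaving out PBS 5 gave 0.14 for Psmd3 and 0.10 for Psme4.

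The largest negative values among constitutive members were those of Psmd10, the chaperone gankyrin, and of Psmd14, the deubiquitinase of the lid. Psmd10 had 44.6, 54.2, 48.2, 45.1 and 104 CPM in PBS and 45.4, 43.0, 47.6, 41.1 and 39.2 CPM in SLR14 tumours (log2 fold change -0.45, SE 0.21, edgeR adjusted p = 0.452). Psmd14 had 150.1, 170.0, 146, 129 and 279 CPM in PBS and 153, 152, 158, 138 and 126 CPM in SLR14 tumours (-0.27, SE 0.18, edgeR adjusted p = 0.606). In both genes PBS 5 was far above the other 9 tumours. Without it the log2 fold changes were -0.16 and -0.04. Psmf1, the inhibitor PI31, had a log2 fold change of 0.07 and Psma8, at 0.228 to 0.929 CPM, one of -0.54 (SE 0.41), and neither passed. Without PBS 5 they were 0.02 and -0.19.

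**Figure D4:**
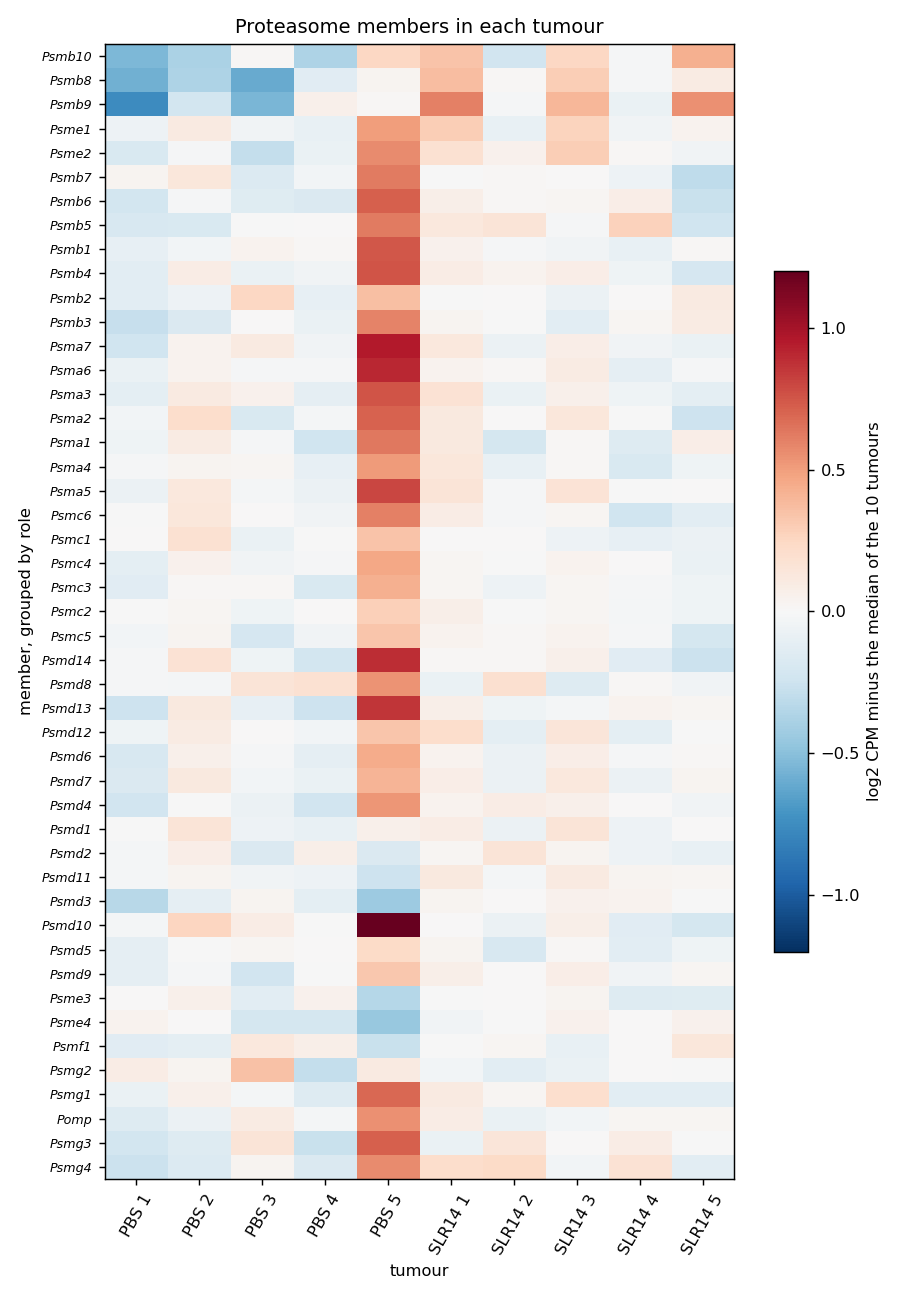
Log2 CPM of 47 members (rows, by role; Psma8 left out for its low level) in the 10 tumours (columns), as the difference from the member's median over the tumours. PBS 5 is the highest tumour for 34 of 42 constitutive members, while Psmb8, Psmb9 and Psmb10 are highest in SLR14 1 or SLR14 5.

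Constitutive members were high together in PBS 5. Their median difference from the mean of PBS 1 to 4 was 0.55 on the log2 scale, where the median of all genes was 0.02. In the other 9 tumours the constitutive median, taken against the rest of the group, lay between -0.22 and 0.08. For PBS 1 to 4 the rest of the group included PBS 5, whose high levels lower these values. The number of constitutive members above the rest of the group did not set PBS 5 apart: it was 36 of 42 in PBS 5, 37 in SLR14 1, 30 in SLR14 3 and 5 in PBS 1. The median of the 5 inducible members was 0.53 in PBS 5 and -0.32 to 0.25 in the other tumours. The largest differences in PBS 5 were those of Psmd10 (1.12), Psma7 (0.99) and Psmd13 (0.98), apart from the low Psma8. The 6 members below were Psme4, Psme3, Psmd3, Psmf1, Psmd11 and Psmd2 (-0.36 to -0.16).

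PBS 5 also differed from the other PBS tumours by transcript length. The median log2 difference over all tested genes was 0.43 for genes with at most 1000 bases of exon and -0.31 for those over 5000 bases, among the 15289 tested genes with an annotated length. Constitutive members stood above the genes of their length. Between 1000 and 1500 bases the 6 members had a median of 0.78 against 0.41 for 853 genes, and between 3000 and 5000 bases the 10 members had 0.67 against 0.02 for 4104 genes. Over 5000 bases the 8 members had 0.16 against -0.31. The part of transcript length and of the red cell genes in the high proteasome levels of PBS 5 was not tested.

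**Figure D5:**
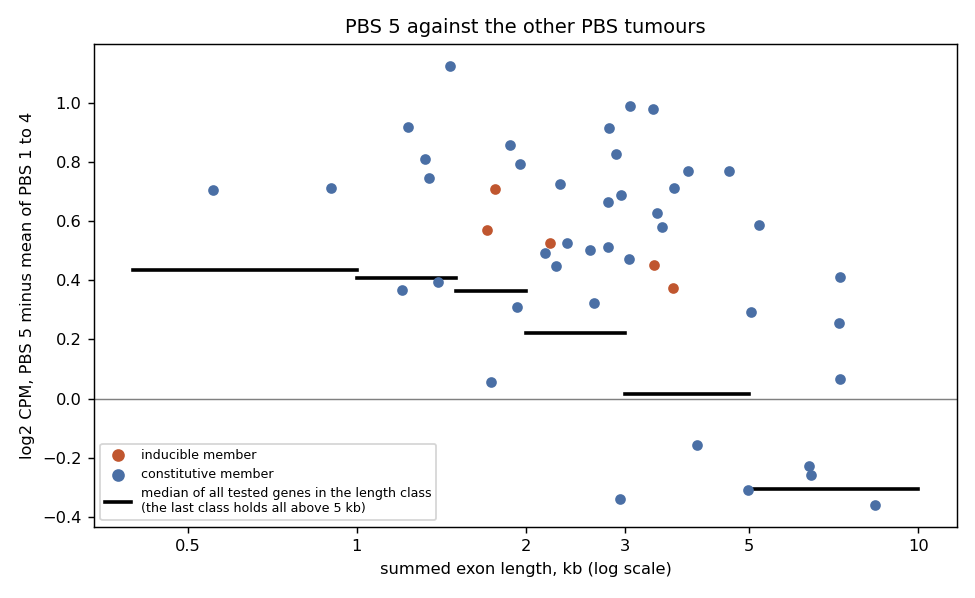
Difference in log2 CPM between PBS 5 and the mean of PBS 1 to 4 (vertical axis) against summed exon length in kb (horizontal log axis) for 47 members as points, with the median of all tested genes of each length class as black lines. The lines go from 0.43 for the shortest to -0.31 for the longest genes, and most members lie above them.

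Subunits that are present in equal number in the particle differed widely in transcript level per length. In PBS tumours the CPM per kilobase (RPKM, exon lengths of GENCODE M21) of the 7 alpha ring genes ranged from 29.5 for Psma2 to 118 for Psma6. Among the 4 structural beta genes they ranged from 29.6 for Psmb1 to 197 for Psmb4, the highest of the 48 members. The constitutive catalytic genes had 46.5 ± 12.0 for Psmb5, 92.2 ± 29.0 for Psmb6 and 73.0 ± 16.6 RPKM for Psmb7 (SD, n = 5). The inducible ones had 54.7 ± 10.6 for Psmb8, 20.03 ± 4.72 for Psmb9 and 22.04 ± 5.19 RPKM for Psmb10. Psmb9 and Psmb10 differed by less than their spread. The ATPases ranged from 25.9 to 110.0 RPKM, and the core assembly chaperones from 2.19 for Psmg3 to 38.4 for Psmg1. Summed exon lengths count all annotated isoforms, so levels of genes with many isoforms are understated.

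Genes around the proteasome were read from lists, which were chosen with earlier results of these data known. Over all genes 0.963% passed in edgeR, and 10.8% had an unadjusted p under 0.05. Of 25 tested partners and regulators of the particle, 0 passed in edgeR and 0 had an unadjusted p under 0.05, with a median log2 fold change of -0.01. They include Adrm1 and Sem1, subunits outside the symbol rule (log2 fold changes 0.10 and -0.16, edgeR adjusted p = 0.685 and 0.653), and Nfe2l1, the factor that drives constitutive subunits (0.17, edgeR adjusted p = 0.664). Those of Sem1 and Nfe2l1 were -0.06 and 0.06 without PBS 5. The 10 genes listed around peptide supply to class I molecules trim or carry peptides, apart from B2m, the class I light chain. Of the 10, 1 passed, and 5, B2m among them, had an unadjusted p under 0.05. The median log2 fold change of the 10 was 0.21. Tap1, the transporter gene that shares its promoter region with Psmb9, rose by 0.82 (SE 0.18, edgeR adjusted p = 0.0451), but its adjusted p was 0.0540 to 0.139 when any 1 tumour except PBS 4 was left out. Tap2 had a log2 fold change of 0.47 (SE 0.13, edgeR adjusted p = 0.135).

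Of 11 regulators of the inducible subunits, 2 passed, both higher, against 0.674% of all genes. An unadjusted edgeR p under 0.05 was found for 6 of them, against 10.8% of all genes. These 6 were not all higher: Ifngr1, an interferon-gamma receptor gene, was lower (-0.28, SE 0.09, edgeR adjusted p = 0.27). Stat2 rose by 0.81 (SE 0.12, edgeR adjusted p = 0.00482) and kept its call without any 1 tumour (up to 0.0218). Irf9, separated from Psme2 by Rnf31, rose by 0.52 (SE 0.09, edgeR adjusted p = 0.0214) but its adjusted p was 0.0524 to 0.0712 when PBS 1, PBS 2, PBS 3, SLR14 1, SLR14 3 or SLR14 5 was left out. Nlrc5 had a log2 fold change of 0.67 and did not pass (SE 0.23, edgeR adjusted p = 0.293; 0.48 and 0.174 without PBS 5). Irf1, a factor known to induce Psmb9 and Tap1, was at 52.1 ± 4.37 and 54.8 CPM in the means of the groups (0.07, SE 0.09, edgeR adjusted p = 0.766).

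Leukocytes carry the inducible subunits without interferon, and leukocyte markers were at a higher summed level after SLR14. The summed level of 10 leukocyte genes was 658 to 784 CPM in PBS and 807 to 924 CPM in SLR14 tumours, with PBS 5 the lowest. The list was mixed: 0 of the 10 passed and 7 had a positive log2 fold change. Those of Ptprc (CD45), Cd53 and Cytip were -0.06, -0.14 and -0.03. Abundant genes weigh most in the sum, and the most abundant, Lcp1, had means of 207 and 250 CPM. Of 8 macrophage genes 0 passed (1797 to 2266 and 1792 to 2226 CPM). Of 3 tested T cell genes 0 passed in edgeR, and their sum of 4.82 to 16.7 CPM over the 10 tumours was mostly Cd4 (log2 fold change -0.58). Cd3e was at 0 to 0.569 CPM in PBS and 0.714 to 1.85 CPM in SLR14 tumours (2.57, SE 0.62, edgeR adjusted p = 0.0791). Its groups did not overlap, as in 3.24% of all genes in either direction. It passed in DESeq2 and limma voom (adjusted p = 0.00283 and 0.0400). Cd8a was at 0.105 to 0.599 CPM in PBS and 0.406 to 1.92 CPM in SLR14 tumours (2.15, SE 0.55, edgeR adjusted p = 0.111), and passed in DESeq2 (adjusted p = 0.0106) but not in limma voom (adjusted p = 0.166). Of 5 neutrophil genes 3 passed, all higher (10.9 to 15.8 and 16.6 to 49.4 CPM), and of 3 dendritic cell genes 1 passed, lower. None of the 5 red cell and 6 muscle genes passed, and of 7 renal epithelial genes 1 passed, Epcam, lower. Over all genes 0.674% passed as higher and 0.29% as lower in edgeR. In PBS 5 the inducible and the constitutive members were both high (median log2 differences from the other PBS tumours 0.53 and 0.55). The leukocyte genes were mixed there. Cd52, Itgb2, Laptm5 and Lcp1 were at their lowest of the 10 tumours in PBS 5, and Cd53, Cytip and Tyrobp at their highest. The part of leukocytes, T cells included, in the levels of Psmb8, Psmb9 and Psmb10 was not tested.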

How the data were processed

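Total RNA of 10 tumours was depleted of ribosomal RNA and enriched with oligo(dT), per the labels' protocols. Per the submitters' processing notes, the build was mm39 and the tools included STAR, Trim Galore 0.6.7 and DESeq2 1.36.0. For the counter, its strand setting and its annotation: not given in the sources used here. Exons of 13 of 48 members overlap another gene's in GENCODE M21 (GRCm38), such as those of Psmb9 and Tap1 (212 bases, on opposite strands). As the strand setting is not given, it is not known whether reads there were told apart.

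The deposited files hold raw counts per gene (18603 genes, all of which reach 5 in at least 3 columns of the normalized table) and a deposited normalized signal, in which each sample's counts share 1 divisor. Genes without a symbol (74, 0.0295% of counts) were kept. Groups came from the titles. Counting noise was exceeded in all 20 pairs of libraries of 1 group (chi-square per degree of freedom 7.66 to 134).

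Genes were kept by filterByExpr (groups as given, minimum count 10), scaled by TMM and tested with edgeR 4.0.16 (R 4.3.3), tested on simulated data, with no covariate. The SE is the absolute log2 fold change over the square root of F. Ratios used counts plus 0.5 and all 252 assignments of tumours. Levels of all 48 members were divided by exon lengths matched by gene identifier. Alternatives were DESeq2 1.42.0, limma 3.58.1, other scalings, filters, pseudocounts and denominators, the replicate number as a block, and leaving out tumours. Values are named for the inducible members, their counterparts and Pomp, for the 2 largest positive and 2 largest negative constitutive members, and for fixed or called genes of the lists. The members and lists were chosen with earlier results of these data known. Protein sequences and Psmb11 were not analysed here, and 1 gene of the regulator list is not reported here by name.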

Additional observations from a re-analysis of the deposited data

Results flagged for a closer look

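A tumour lay far from the 4 others of its group for the members and ratios named here, where the gap to its nearest neighbour exceeded 0.71 of the group's range, which chance gives in about 1 of 20 groups. PBS 5 was high for Psmb5 (60.6 CPM, others 34.6 to 39.6), Psmb6 (269 CPM, others 140.3 to 162), Psmd10 (104 CPM, others 44.6 to 54.2) and Psmd14 (279 CPM, others 129 to 170.0). It was high also for Psme1 (170 CPM, others 113 to 129), Psme2 (213 CPM, others 118 to 143), Psme1/Psme3 (1.09) and Psme2/Psme3 (1.37). SLR14 5 was low for Psmb6 (136 CPM, others 165 to 173) and Psmb7 (182 CPM, others 216 to 228). PBS 3 was high for Psmb10/Psmb7 (0.213, others 0.126 to 0.149). Over all 48 members, 22 stood apart in PBS 5 and 3 in any other tumour, among 96 checks.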

How the results depend on the processing

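The called genes numbered 153, 107 higher and 46 lower. DESeq2 called 407, 251 higher and 156 lower, and the fit with the replicate number as a block 78, 51 higher and 27 lower, with 0 members. Leaving out 1 tumour gave 69 to 194 called, 44 to 123 higher and 25 to 71 lower, and 0 to 1 members; the tumours that moved a count by over 1.5 times were PBS 1 (69), PBS 3 (78), SLR14 1 (77), SLR14 3 (75), SLR14 4 (89), PBS 2 (70 higher) and PBS 5 (71 lower). Members called went from 0 to 1 in DESeq2, without PBS 5, and without both PBS 5 and SLR14 2 (74 genes lower), an alternative chosen after seeing the data; each time the member was Psmb8. The inducible median stayed positive (0.27 to 0.48 without 1 tumour), and the constitutive one lay between -0.13 and 0.02. The replicate numbers showed no sign of pairing the tumours (same-number correlations of deviations -0.20 to 0.11, with 1 of 5 tumours correlating best with its own number). Such correlations cannot exclude a pairing, and the labels do not state one. With the replicate block as sign flips, Psmb8/Psmb5, Psmb9/Psmb6 and Psmb10/Psmb7 had exact permutation p = 0.188, 0.188 and 0.0625, the last the smallest possible. Over the tumours left out in turn, the log2 difference was 0.41 to 0.57 for Psmb8/Psmb5, -0.081 to 0.16 for Psme1/Psme3 and 0.010 to 0.28 for Psme2/Psme3. Psme1/Psme3 was 0.23 without both PBS 5 and SLR14 2. Against the mean of 14 constitutive core genes the 5 differences were 0.59, 0.69, 0.46, 0.12 and 0.20, the fourth turned in sign, with no test. Fold changes near 0 that never passed changed sign. Psme1 was -0.039 with upper-quartile factors, -0.0042 when genes under 1 CPM in the mean were dropped, and -0.055 to 0.12 without 1 tumour. Psmb5 was 0.0061 in limma voom, 0.019 on the deposited normalized values, 0.013 with the replicate block, 0.13 without both tumours and -0.073 to 0.15 without 1. Without both tumours and without 1, Psmb6 was 0.12 and -0.15 to 0.12, Psme3 -0.068 and -0.052 to 0.049 (-0.016 with upper-quartile factors), and Pomp 0.055 and -0.15 to 0.037. The cause was not tested, beyond PBS 5's own values. Depth limits Psma8 (0.228 to 0.929 CPM); the next lowest member, Psmg3, had at least 4.94 CPM.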
